A study of Monodelphis domestica and Mus musculus with 26 samples.

Results

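The genes described here encode the machinery of intraflagellar transport and the BBSome, and they were picked by symbol alone. A gene was a member if its symbol was IFT or BBS followed by a number, or BBIP1, KIF3A, KIF3B, KIFAP3, DYNC2H1, DYNC2LI1, DYNC2I1, DYNC2I2, TRAF3IP1, CLUAP1 or HSPB11. Among the mouse single-cell features, 33 of 32532 met this rule. Among those of opossum, 25 of 32251 did, where 11523 features carry a name, and the same 25 identifiers were found among the 34985 genes of the opossum bulk tables. The 8 members named in mouse alone were HSPB11, DYNC2LI1, BBS1, BBS2, BBS5, BBS9, BBS10 and BBS12. By role, the mouse and opossum sets held 14 and 13 IFT-B subunits, 3 and 3 IFT-A subunits, 7 and 3 BBSome subunits, 4 and 3 subunits of dynein-2, and 3 and 3 of kinesin-2. The mouse set also held 2 chaperonin-like proteins that assemble the BBSome, BBS10 and BBS12. Every member passed the filters on low values, so that 33 mouse and 25 opossum genes were tested. Symbols are written in capitals for both species.

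Intraflagellar transport carries building material along the microtubules of a growing cilium or flagellum. Trains made of IFT-B and IFT-A subunits are pulled towards the tip by kinesin-2 and back to the base by dynein-2, and the BBSome rides on them as an adaptor for membrane proteins. In the testis the only flagellum built in quantity is the sperm tail, which spermatids assemble after meiosis, and mouse mutants of several of these genes make sperm with short or malformed tails.

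The study profiled testes of mouse and of the gray short-tailed opossum, a marsupial. Droplet single-cell RNA libraries numbered 3 from adult C57BL6/J mice, 8 to 16 weeks old by the protocol, and 3 from adult opossums. The 20 bulk opossum libraries covered 1 month (2), 2 months (4), 3 months (4), 4 months (3) and adulthood (7). All animals were unmanipulated as far as the labels say, and all testes were dissociated with collagenase and trypsin before RNA was taken. Selection for polyA was used for 16 bulk libraries, while 4 were depleted of ribosomal RNA, namely replicates 2 to 4 of 2 months and adult replicate 2. Libraries carry numbers within a group, but the labels do not say that each came from its own animal, so p-values measure the spread between these samples.

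The mouse single-cell libraries held 45395185 to 65263953 UMIs and the opossum ones 22710048 to 37747724. Clusters were named from marker genes as spermatogonia, spermatocytes, round spermatids and elongating spermatids, and their UMIs were summed per library. The smallest of these germ-cell sums held 541730 UMIs in mouse and 572341 in opossum. In opossum, 2 of the round spermatid clusters, numbered 17 and 25, stood apart with 8.51 and 8.19 times the depth of their libraries. They gave 58.0% and 17.2% of the UMIs of that class, so the counts of leading classes and of called members that involve opossum round spermatids are given below with and without them. Whether they hold doublets or single large cells was not tested. The elongating spermatids of opossum replicate 2 also stood apart, with a TMM factor of 0.266 against 0.718 and 0.891 in the other two libraries. The class joins the shallower cluster 7 and the deeper cluster 13, and the libraries hold them in different mixes. Without cluster 7, replicates 1, 2 and 3 kept 83 of 751, 471 of 512 and 83 of 348 elongating cells. The part of this mix in differences between the libraries was not tested. No pair of libraries of one species shared more than 198 barcodes. As a measure of spermatid RNA in other classes, the protamine PRM1, which elongating spermatids make, was read: it had a mean of 62400 CPM (UMIs scaled to a common library total) in mouse elongating spermatids and 17300 CPM in the class named Sertoli.

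The first question was in which germ-cell class each gene was highest. In mouse most members were highest in spermatocytes, and in opossum the count depended on 2 clusters and on the scaling. By mean CPM spermatocytes led for 21 of 33 mouse members and 16 of 25 opossum members, whereas 22.5% of the 18992 mouse genes tested and 31.6% of the 15742 opossum genes were highest there. Round spermatids held the maximum of 9 mouse and 4 opossum members, spermatogonia that of 2 and 1, and elongating spermatids that of 1 and 4. Of all mouse and opossum genes tested, 21% and 22.2% were highest in round spermatids. The shares were 44.4% and 37.4% for spermatogonia and 12.2% and 8.79% for elongating spermatids. The top 2 classes did not overlap between libraries for 15 mouse and 16 opossum members, against 52.2% and 62% of all genes tested, so for the others the leading class is not separated from its neighbour. Without opossum clusters 17 and 25, spermatocytes led for 9 and round spermatids for 10 opossum members, and the top 2 classes did not overlap for 12 (64.6% of genes). With the scaling used in the fits below (TMM), the spermatocyte counts were 20 in mouse and 11 in opossum, and elongating spermatids were the leading class of 3 mouse and 9 opossum members, with the top 2 classes apart for 16 (49.5% of genes) and 9 (49.4%). Shares of all genes by leading class are not given without clusters 17 and 25 or by scaled means, here or by role below. The moved counts therefore do not show a change among members alone. The same class led in both species for 14 of the 25 shared members (56.0%), against 44.8% of 9142 matched genes. By scaled means this was 12 members, against 38% of 7322 genes, and in plain CPM without clusters 17 and 25 it was 11 (44%), against 44.3% of 9100.

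By role, spermatocytes led for 9 of 14 mouse IFT-B genes, 2 of 3 IFT-A genes, 5 of 7 BBSome genes and 3 of 4 dynein-2 genes. In opossum they led for 8 of 13, 3 of 3, 2 of 3 and 2 of 3, by scaled means for 6, 2, 1 and 2, and in plain CPM without clusters 17 and 25 for 6, 1, 0 and 1. Kinesin-2 was split in plain CPM: in mouse KIF3B was highest in spermatocytes, KIFAP3 in round spermatids and KIF3A in spermatogonia, and in opossum the same genes were highest in spermatocytes, round spermatids and elongating spermatids. By TMM-scaled means, mouse KIF3A was highest in spermatocytes and KIFAP3 in elongating spermatids, and all 3 opossum genes were highest in elongating spermatids. Among all 9 cell classes, a class named as somatic held the maximum of 3 mouse members (BBS12, BBS9 and IFT20) and 2 opossum members (KIF3B and IFT20). For KIF3B this was the opossum class named Sertoli, in which 18 spermatogonial markers summed to between 3710 and 4760 CPM and 8 Sertoli markers to between 1480 and 1840, against 1620 to 2260 for the latter in round spermatids, so that the markers do not bear out its name. IFT20, which also sits on the Golgi apparatus, had 594, 744 and 753 CPM in the 3 mouse libraries of Leydig cells and 226, 138 and 251 CPM in spermatocytes. The mouse Leydig libraries therefore lay above all spermatocyte libraries for this gene. In opossum, IFT20 had 118, 206 and 125 CPM in Leydig cells and 99.2, 20.4 and 173 CPM in elongating spermatids, and those ranges overlapped. The heatmap of scaled levels shows these patterns for each library.

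**Figure D1:**
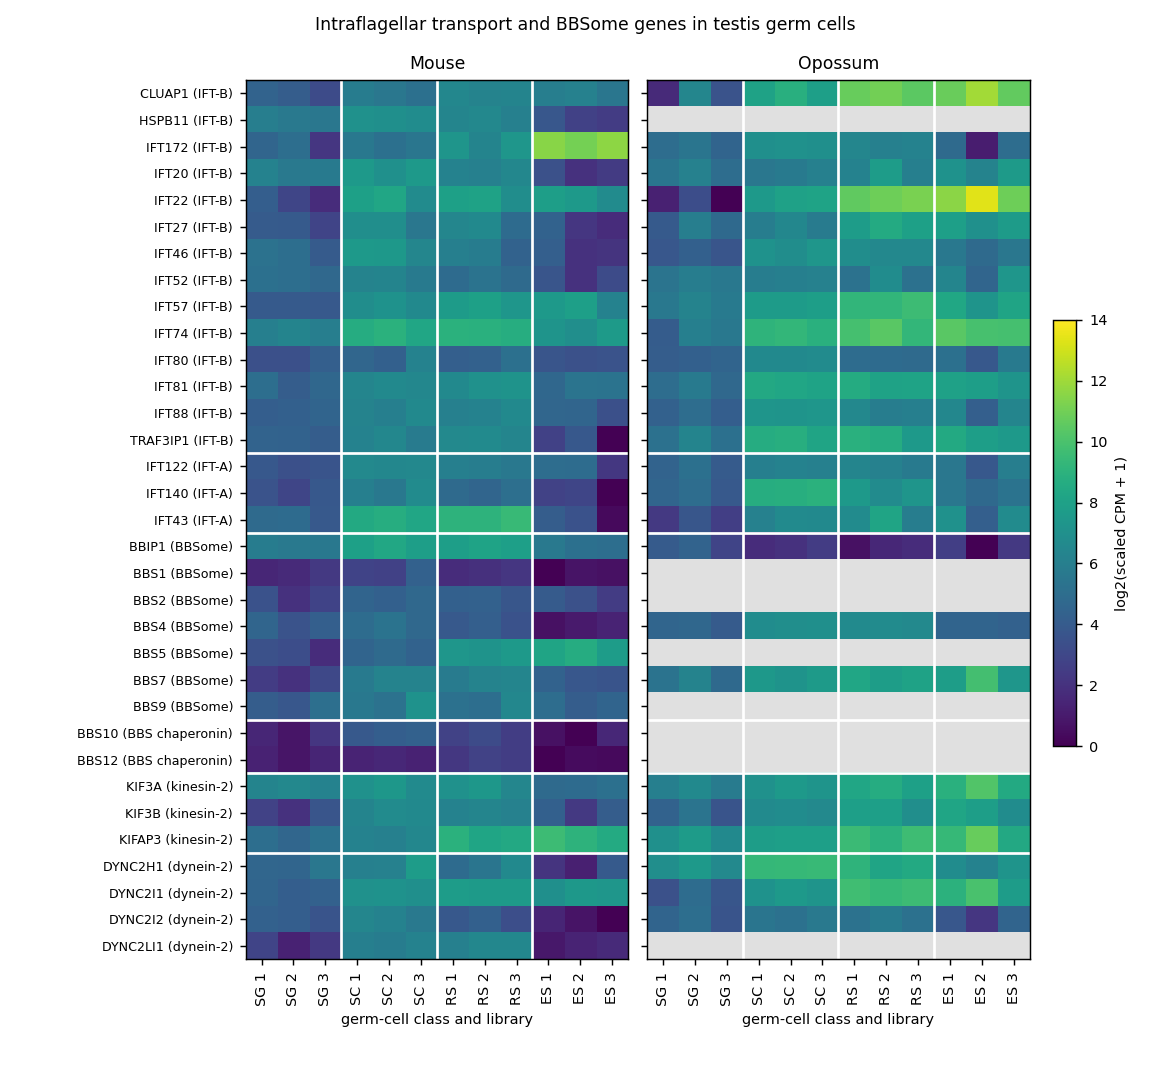
Heatmap of log2(scaled CPM + 1) for the 33 member genes (rows) in the 4 germ-cell classes of 3 libraries per species (columns); grey rows were not named in opossum. Brighter cells are higher levels. Most rows have their highest mean in spermatocytes or round spermatids. Others have it in elongating spermatids, such as IFT172, KIFAP3 and BBS5 in mouse and IFT22 and CLUAP1 in opossum. Mouse IFT172 lies there between 2177 and 3103 scaled CPM.

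Changes from one class to the next were tested with edgeR's quasi-likelihood test with the library as a block. To be called, a gene needed a p under 0.05 after Benjamini-Hochberg adjustment and a log2 difference of 1 or more in size. Levels below are scaled CPM, which are CPM divided by the library's TMM factor, in replicates 1, 2 and 3. Because a 3-prime kit counts molecules per gene, levels are compared between classes for 1 gene and not between genes.

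In mouse, 29 of 33 members rose from spermatogonia to spermatocytes and none fell. Of all genes tested, 29.7% rose and 22.5% fell. The median member rose by 1.85 on the log2 scale and the median of all genes by 0.276. All 3 spermatocyte libraries lay above all 3 spermatogonial ones for 32 of 33 members, against 33.8% of all genes. The rise was called for 13 of 14 IFT-B genes, all 3 IFT-A genes, 6 of 7 BBSome genes, all 4 dynein-2 genes, 2 of 3 kinesin-2 genes and 1 of 2 chaperonins.

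The small GTPase-like IFT-B subunit IFT22 had the largest difference, from 17.1, 6.71 and 2.38 scaled CPM to 252, 307 and 107 (log2 difference 4.79 ± 0.45, adjusted p = 3.58e-06). Every spermatocyte library was above every spermatogonial one. IFT43, an IFT-A subunit, went from 27.6, 29.1 and 13.8 to 357, 429.5 and 308 (4.04 ± 0.69, adjusted p = 2.94e-04), again without overlap. DYNC2LI1, the light intermediate chain of dynein-2, had 6.39, 1.49 and 3.96 and then 65.3, 57.1 and 72.7 (3.94 ± 0.47, adjusted p = 1.75e-05). It rested on 25, 2 and 20 UMIs in spermatogonia. KIF3B, a motor subunit of kinesin-2, rose from 5.88, 2.98 and 11.7 to 78.3, 107 and 98.8 (3.83 ± 0.54, adjusted p = 7.28e-05). BBS7, a propeller subunit of the BBSome, rose from 4.60, 2.98 and 7.12 to 51.2, 77 and 77 (3.73 ± 0.44, adjusted p = 1.73e-05). In both cases the groups stood apart. The other members of the rule for named genes were BBS10 (2.99), the IFT-A subunit IFT122 (2.98) and the IFT-B subunit IFT57 (2.97), each on the log2 scale. BBS10 had 1.79, 0.746 and 3.56 scaled CPM in spermatogonia, below DYNC2LI1 in each library, so its rise rests on few UMIs there. The scaling matters for the count: with RLE factors 23 members rose and with DESeq2 24, with none falling under either, and 44.5% and 43.7% of all calls were rises in place of 56.9%. The median of all genes was then -0.22 and -0.309.

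Within mouse spermatocytes, some clusters could be placed by further markers as leptotene to zygotene-like (1379 cells) or diplotene to division-like. In plain CPM, 18 of 33 members had a higher mean in the later clusters (54.5%, against 40.7% of all genes tested). For 12 members all libraries of the later clusters were above all of the earlier ones, and for 3 all were below, against 22.7% and 28.9% of genes. These comparisons were not tested. IFT43 had 83.3, 53.0 and 95.9 CPM early and 462, 462 and 642 late. IFT22 had 112, 60.1 and 35.6 early and 331, 331 and 219.6 late. In the opposite direction, HSPB11, the IFT-B partner of IFT27, had 334, 354 and 281 early and 108, 115 and 108 late. IFT140, the largest IFT-A subunit, was highest between them, with 208, 322 and 234 CPM in the single pachytene-like cluster of 728 cells, where the 3 libraries lay above those of both other groups. That cluster passed 3 of 8 markers and held 4.98% of the mouse spermatocyte UMIs. Clusters 14 and 10 also scored best as pachytene but were not placed, and they held 22.9% and 3.51%. The members named here were singled out after their values were seen. In opossum 1 cluster could be placed on each side, of 340 and 756 cells. They held 9.06% and 12% of the spermatocyte UMIs, while clusters 3 and 6, which were not placed, held 34.2% and 44.6%. Between the placed clusters, 15 of 25 members had a higher mean in the later one (43.4% of genes). All libraries were above for 11 (15.7%) and all below for 5 (28.9%). IFT22 had 68.7, 191 and 183 CPM early and 1034, 647 and 1520 late. IFT43 had 95, 136 and 156 and 144, 112 and 109, which overlapped, and IFT140 had 289, 220.0 and 205 then between 57.5 and 203, all lower late. In the whole class IFT140 had 424, 437 and 484 scaled CPM at TMM factors of 1.53, 1.35 and 1.42, so both placed clusters lay below the class. These comparisons between clusters were not tested either.

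From spermatocytes to round spermatids the mouse members divided. Rises were called for 4 and falls for 7 of 33, where 50.1% of all genes were called, 27.4% rising and 22.7% falling, and the median difference was -0.105 for members and -0.102 for all genes. BBS5, a membrane-lipid-binding subunit of the BBSome, went from 22.1, 27.9 and 20.4 scaled CPM in spermatocytes to 164, 146 and 183 in round spermatids (2.86 ± 0.42, adjusted p = 1.17e-04). KIFAP3, the non-motor subunit of kinesin-2, went from 72.9, 68.6 and 87.5 to 483, 299.8 and 345 (2.27 ± 0.36, adjusted p = 1.89e-04). Neither gene's groups overlapped. IFT172 and BBS12 were the other rises, by 1.64 and 1.47, and the call of IFT172 was lost without replicate 1. The dynein-2 intermediate chain DYNC2I2 fell from 85.0, 72.7 and 49.7 to 13.7, 18.4 and 9.26 (-2.33 ± 0.44, adjusted p = 6.95e-04), so that the 2 intermediate chains of this motor parted: DYNC2I1 had 133, 138 and 124 and then 209, 196 and 200.2 and was not called. IFT46, an IFT-B core subunit, fell from 185, 176 and 83.6 to 64.8, 57.3 and 20.3 (-1.73 ± 0.41, adjusted p = 0.00341). BBS1 (-1.58) and BBS4 (-1.13) fell as well. Without the library block 5 members were called (41% of all genes), and without mouse replicate 1 only 4 (24.4%), in place of 11 (50.1%).

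From round to elongating spermatids most mouse members fell. Falls were called for 23 of 33 and a rise for 1, while 49.5% of all genes were called, 31.1% lower and 18.4% higher. The median member changed by -2.24 and the median gene by -0.482. All elongating libraries were below all round ones for 27 members, against 34.8% of genes. The 23 falls covered 9 of 14 IFT-B genes, all 3 IFT-A genes, 4 of 7 BBSome genes, 3 of 4 dynein-2 genes, 2 of 3 kinesin-2 genes and both chaperonins. With RLE factors or DESeq2, 22 members fell and 3 rose, and rises were 50% and 50.5% of all calls in place of 37.2%.

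IFT43 dropped furthest, from 537, 534 and 695 scaled CPM to 16.5, 10.6 and 0.276 (-6.32 ± 0.78, adjusted p = 2.62e-05). Its last value, of replicate 3, lies near the floor and far below the others, so the size of the fall rests in part on it. DYNC2LI1 went from 66.7, 87.5 and 87.0 to 0.841, 1.66 and 2.2 (-5.69 ± 0.52, adjusted p = 4.01e-06), resting on 3, 5 and 8 UMIs in elongating spermatids. TRAF3IP1, an IFT-B subunit that binds microtubules, went from 94.0, 105 and 80.5 to 5.60, 13.6 and 0 (-4.16 ± 0.71, adjusted p = 2.92e-04). For all of these the lowest round library was above the highest elongating one. IFT20 fell by 3.80, DYNC2I2 by 4.19, BBS4 by 3.70, BBIP1 by 2.69 and KIF3A by 2.04 on the log2 scale. In elongating spermatids DYNC2I2 had 1.68, 0.664 and 0 scaled CPM and BBS4 had 0.560, 0.996 and 1.65. These levels are as low as those of DYNC2LI1, so the sizes of both falls depend on the added prior count. BBS12 was also called lower, but it had only 0, 1 and 1 UMIs in elongating spermatids against 69, 70 and 66 in round ones, and the size of its fitted difference depends on the added prior count. Members not called in this step included CLUAP1, IFT22, IFT57, DYNC2I1, BBS5 and KIFAP3, whose fitted differences lay between -0.50 and 0.79. KIFAP3 had 784, 532 and 380.2 scaled CPM in elongating spermatids against 483, 299.8 and 345 in round ones, and these ranges overlapped.

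The single called rise of the last mouse step was that of IFT172, although BBS5, not called (0.79), also had every elongating library (293, 404 and 209.9 scaled CPM) above every round one. IFT172, the largest IFT-B subunit, lies on chromosome 5 at 31410612 to 31448512, minus strand (GRCm39, GENCODE vM39). It had 22.2, 32.8 and 3.56 scaled CPM in spermatogonia, 48.4, 34.8 and 43.8 in spermatocytes, 158, 78.1 and 160.4 in round spermatids and 2950, 2177 and 3103 in elongating spermatids. The elongating libraries were the highest without overlap, and the last step gave a log2 difference of 4.38 ± 0.64, adjusted p = 8.96e-05. It was called under every alternative computed. All 3 clusters of elongating spermatids held it, at 940.4, 1378 and 704 CPM. Clusters of round spermatids differed widely, with 26.0 and 26.7 CPM in the deepest, 139 in the next, and 464, 281 and 56.0 CPM in the 3 shallowest. The class named Sertoli had 394, 393 and 167 CPM, beside the PRM1 level given above, and the part of free RNA in that value was not tested.

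No annotated gene overlaps mouse IFT172. Of its neighbours with values, both coding genes on its left had lower means in elongating than in round spermatids, while the coding FNDC4 on its right and the non-coding Gm9970 had higher ones. KRTCAP3, which ends 65 bases from it, went from a mean of 13.9 scaled CPM in round spermatids to 4.46 in elongating ones. NRBP1, 1701 bases away, went from 9.27 to 1.13. FNDC4, 1074 bases away on the other side and on the strand of IFT172, had 0.0186 and then 0.296. The long non-coding RNA Gm9970, 12036 bases away on the strand of IFT172, had 79.9 and then 209. The non-coding Gm73200, 17 bases away on the other side, has no value here, and reads from it were not examined.

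In opossum the rise into meiosis was again the main feature. From spermatogonia to spermatocytes 19 of 25 members rose and 1 fell, where 55% of all genes were called, 37.9% higher and 17% lower, and the medians were 2.26 for members and 0.803 for all genes. For 22 members all spermatocyte libraries were above all spermatogonial ones, against 44.2% of genes. IFT22 again led, from 1.47, 8.96 and 0 scaled CPM to 189.8, 257 and 277 (6.49 ± 1.00, adjusted p = 4.66e-05), with 1 spermatogonial library at 0. IFT140 rose from 22.4, 31.2 and 13.9 to 424, 437 and 484 (4.30 ± 0.51, adjusted p = 4.08e-06). CLUAP1, a peripheral IFT-B subunit, rose from 2.21, 86.3 and 10.8 to 268, 461 and 240.3 (3.97 ± 0.84, adjusted p = 7.72e-04), and its spermatogonial replicate 2 stood well above the other two. All 3 genes were apart between the classes. IFT43 (3.74), the tubulin-binding pair IFT74 (3.73) and IFT81 (3.12), IFT46 (3.23), DYNC2I1 (3.31), BBS4 (2.52) and KIF3B (2.25) also rose. The fall was that of BBIP1, the smallest BBSome subunit, from 15.1, 20.9 and 6.33 to 2.46, 3.04 and 4.52 (-2.11 ± 0.68, adjusted p = 0.0136). It rested on 41, 63 and 10 and 11, 20 and 18 UMIs, was not called without replicate 1 or 2, and at a minimum of 2000 UMIs per barcode the difference was 0.19.

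The next opossum step rested on the deep round spermatid clusters. With all clusters, 6 of 25 members rose and 2 fell into round spermatids, while 29.4% of all genes rose and 36.8% fell. IFT22 went from 189.8, 257 and 277 scaled CPM to 1541, 1909 and 2358 (3.03 ± 0.81, adjusted p = 0.00330). CLUAP1 went from 268, 461 and 240.3 to 1698, 2100 and 1439 (2.54 ± 0.76, adjusted p = 0.00707) and DYNC2I1 from 139, 189 and 150.5 to 822, 667 and 779 (2.31 ± 0.55, adjusted p = 0.00140). For these genes every round library exceeded every spermatocyte library. IFT27, a small GTPase of IFT-B, rose by 2.02, IFT57 by 1.62 and KIFAP3 by 1.61, and IFT80 and IFT140 fell by 1.81 and 1.60. Without clusters 17 and 25 only DYNC2I1 was called, where 52.6% of all genes were. IFT22 then differed by 0.41 and CLUAP1 by 0.56. By cluster, IFT22 had 1680 and 1429 CPM in the 2 deep clusters and 336 and 511 CPM in the other 2, and CLUAP1 had 1260 and 2161 against 483 and 531. At a minimum of 2000 UMIs, 11 members rose and 4 fell (31.9% and 41.7% of genes). With RLE factors 10 rose and 1 fell, with rises at 55.5% of all calls in place of 44.4%. Without replicate 3, 4 were called, against 54% of genes. The median member difference was -0.00196 in the main scaling, where that of all genes was -0.475, and 0.626 with RLE factors. A change of scaling moves all genes, so the sign of the member median says nothing about the members alone.

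From round to elongating spermatids 7 opossum members fell and none rose, with 21.4% of all genes falling and 16.1% rising. BBS4, a BBSome subunit linked to centriolar satellites, fell from 102, 105 and 93.6 to 22.1, 21.6 and 19.7 (-2.25 ± 0.42, adjusted p = 8.10e-04). IFT140 fell from 191, 106 and 155 to 46.2, 26.4 and 39.5 (-2.01 ± 0.48, adjusted p = 0.00390) and the dynein-2 heavy chain DYNC2H1 from 539.7, 292 and 362 to 110.4, 73.3 and 149.9 (-1.83 ± 0.51, adjusted p = 0.0103). Their round and elongating libraries did not overlap. IFT172 had 84.8, 66.3 and 72.2 in round and 28.1, 1.2 and 31.6 in elongating spermatids (-1.97 ± 0.62, adjusted p = 0.0205), with replicate 2 far below the others. That call was lost with sums thinned to an equal total of UMIs (-1.19) and without replicate 1. DYNC2I2 (-1.78), IFT57 (-1.39) and IFT46 (-1.32) completed the calls. IFT22 remained at 3028, 10630 and 1949 scaled CPM in elongating spermatids, where replicate 2 was the highest, and was not called. Replicate 2 holds another mix of elongating clusters than replicates 1 and 3, as given above. Without clusters 17 and 25, 3 members rose and 9 fell, against 18.7% and 27.6% of all genes. At a minimum of 2000 UMIs 2 rose and 14 fell, against 8.48% and 24.6%, and without clusters of low depth 2 rose and 9 fell, against 10.3% and 21.9%. Without replicate 2, 2 rose and 7 fell (20.7% and 23.4% of genes), and without replicates 1 and 3 falls were called for 1 and 3 members, against 10.3% and 11.8% of genes.

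**Figure D2:**
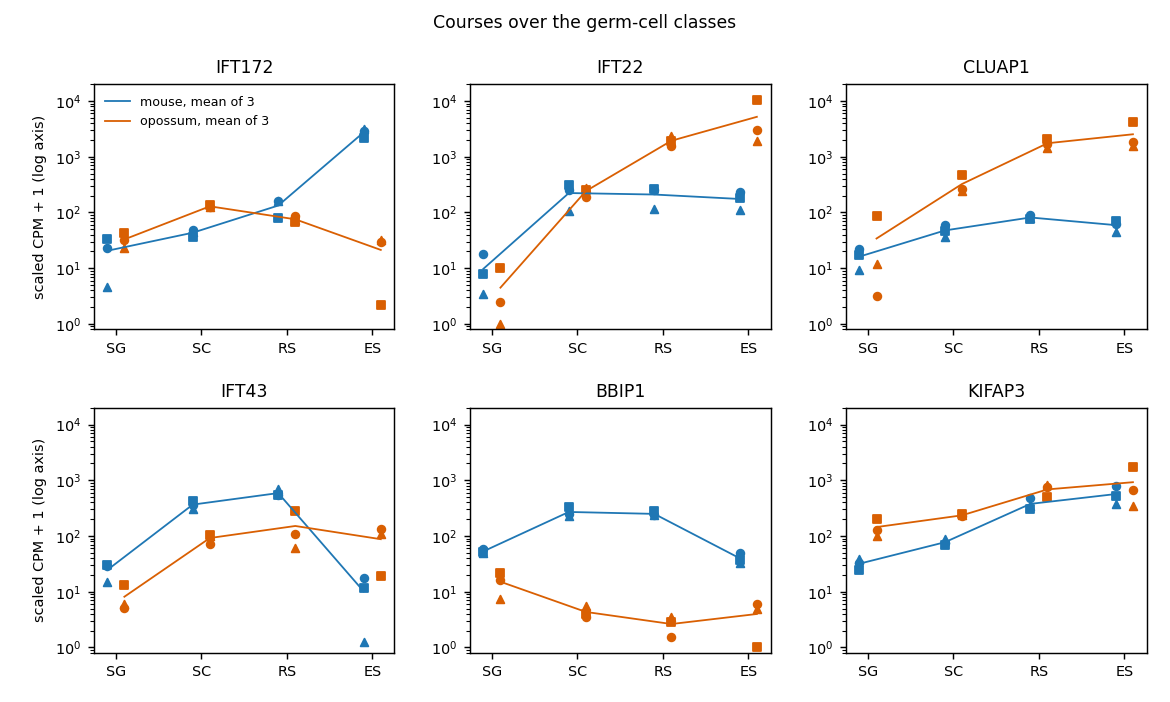
Scaled CPM + 1 (log axis) of 6 member genes across the 4 germ-cell classes for mouse and opossum. Each line joins the means of the 3 libraries of 1 species, and points are single libraries. IFT172 ends between 2177 and 3103 scaled CPM in mouse and between 1.2 and 31.6 in opossum, whereas IFT43 falls in the last class in mouse.

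Whether a change differed between the species was tested as an interaction on 9142 genes matched by symbol, as opossum minus mouse, so that a positive value is a larger rise or a smaller fall in opossum. In the last step the interaction was positive for 12 of 25 members and negative for 1, where 26.7% of all genes were called higher and 14.8% lower, with medians of 1.32 and 0.627. The negative one was IFT172 (-6.57 ± 0.94, adjusted p = 5.93e-06), which rose in all 3 mouse libraries and fell in all 3 opossum libraries. IFT43 had the largest positive value (5.56 ± 1.06, adjusted p = 1.53e-04): its level fell in mouse as given above, while opossum had 106, 286 and 59.8 in round and 134, 18 and 108 in elongating spermatids, with replicate 2 the highest of the first and the lowest of the second. IFT20 followed (3.91 ± 0.68, adjusted p = 5.30e-05), with 71.8, 214 and 65.5 and 138, 76.9 and 195 in opossum. TRAF3IP1 (3.61 ± 0.76, adjusted p = 4.74e-04) and KIF3A (2.80 ± 0.54, adjusted p = 1.78e-04) were next, with BBIP1 (3.24) between them. The value of BBIP1 had the opposite sign at a minimum of 2000 UMIs. Mouse TRAF3IP1 rested on 20, 41 and 0 UMIs in elongating spermatids, so the size of its difference depends on the added prior count. KIF3A, the second motor subunit of kinesin-2, had 134, 167 and 86.3 and then 27.7, 28.2 and 34.4 in mouse, and 316, 407 and 249 and then 473, 1193 and 357 in opossum. Every mouse library was lower and every opossum library higher in elongating than in round spermatids, and the opossum difference was not called (0.93). The scaling changes the count: with RLE factors 6 were positive and 2 negative, with DESeq2 7 and 2, and the median of all genes moved from 0.627 to -0.321 and -0.261. The counts under RLE factors and DESeq2 are not set beside the share of all genes, so they do not show a loss among members alone. Without clusters 17 and 25 of opossum 13 were positive and 1 negative, against 27.4% and 13.8% of genes. At a minimum of 2000 UMIs 5 members were called (27.3% of genes), and without opossum replicate 1, 8 were (29.7%).

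From spermatogonia to spermatocytes 2 interactions were positive and 7 negative, against 22.6% and 19% of all genes (41.6% in either direction). BBIP1 differed most (-4.82 ± 0.67, adjusted p = 5.84e-06): mouse BBIP1 rose from 58.1, 50 and 48.1 to 252, 330.2 and 225. KIF3B (-1.92), BBS7 (-2.01) and IFT122 (-1.76) rose less in opossum, and CLUAP1 (2.01) and BBS4 (1.32) more. IFT27 (-2.19) rose in mouse and was not called in opossum. With RLE factors 3 were positive and 2 negative, against 27.8% and 14.3% of genes. With DESeq2 6 were positive and 3 negative, against 30.7% and 16.7%. Rises were then 66.0% and 64.7% of all calls in place of 54.3%. Only 1 call was left without mouse replicate 1. The share of all genes called in that interaction is not given, so this does not show a loss among members alone. In the mouse step alone, which is another test, calls then fell from 52.2% to 29.5% of genes. From spermatocytes to round spermatids 5 were positive and 2 negative, against 17.9% and 24.3% of all genes (42.2% in either direction). IFT22 (2.85 ± 0.77, adjusted p = 0.00453) and IFT172 (-2.68 ± 0.85, adjusted p = 0.0134) lay at the ends. Without clusters 17 and 25 of opossum neither was called, IFT22 then differed by 0.12, and 3 members were called in all. The counts with RLE factors were 7 and 1 and with DESeq2 11 and 2, and rises were 53.6% and 53.4% of calls in place of 42.5%. These counts, and that without clusters 17 and 25, are given without shares of all genes. They do not show a change among members alone.

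**Figure D3:**
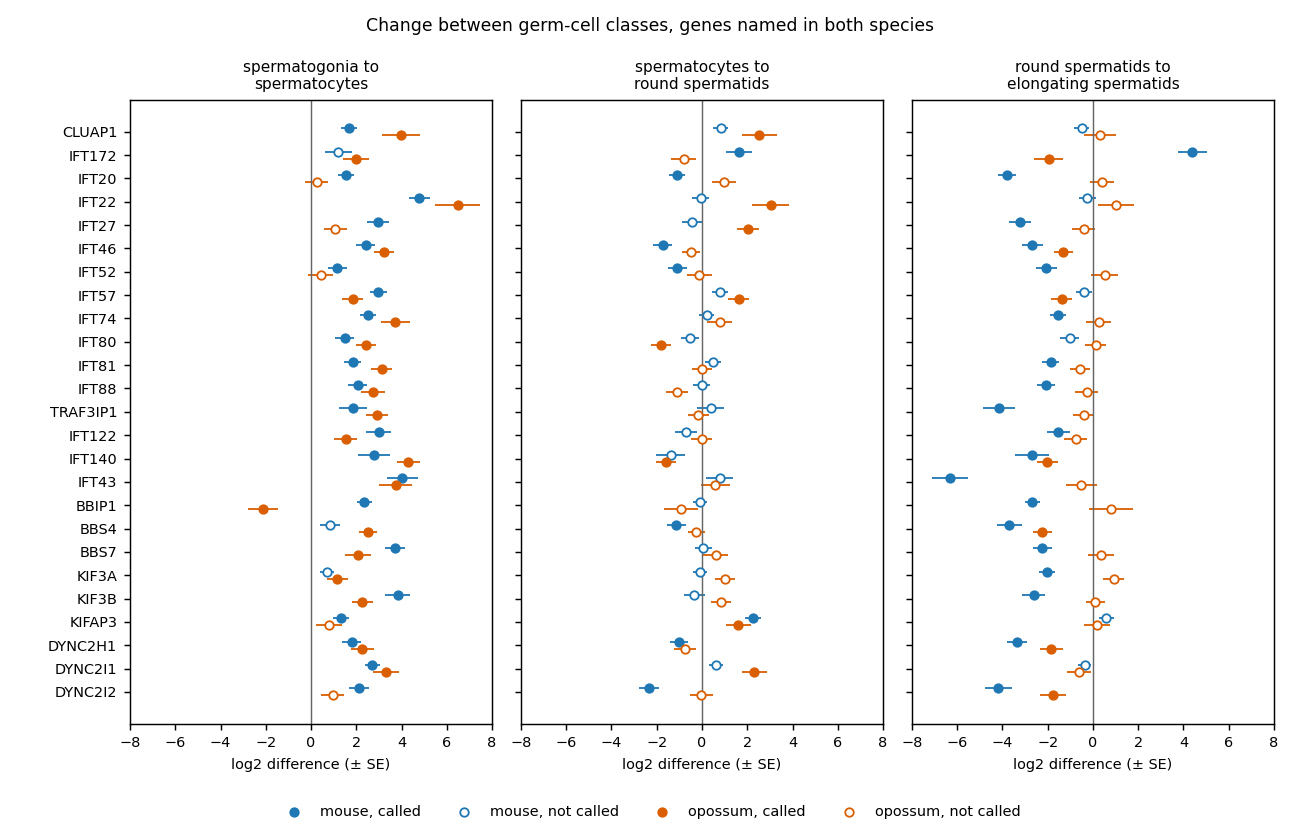
Log2 difference ± SE of each of the 25 members named in both species for the 3 steps between germ-cell classes, mouse and opossum side by side; filled points were called. In the last step mouse IFT172 stands at 4.38 and opossum IFT172 at -1.97, while mouse IFT43 stands at -6.32 and opossum IFT43 at -0.51.

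The bulk tables follow opossum testes over age in TPM, a unit that accounts for gene length and library size. They were fitted with limma on log2(TPM + 1), with age and library preparation as terms, so fold changes are on that scale and understate those of low genes. In whole testes, fewer cells of a type and less RNA per cell cannot be told apart. The summed level of the 25 members was 1090 and 1140 TPM at 1 month, between 464 and 1627 at 2 months, between 5037 and 5661 at 3 months, between 2549 and 4913 at 4 months and between 1277 and 5035 in adults. All 3-month libraries were thus above all libraries of every other age, but the lowest, at 5037, was level with adult replicate 6, at 5035. High genes weigh most in this sum, such as CLUAP1 with between 1055 and 1221 TPM at 3 months. Not every member followed it: KIFAP3 had a mean of 93.4 TPM at 3 months and 171 in adults. Markers of the germ cells moved with age too, by summed TPM. The 20 spermatocyte markers lay between 240 and 259 at 1 month, 189 and 757 at 2 months, 1600 and 1900 at 3 months, 1040 and 1570 at 4 months and 443 and 1720 in adults. The 10 round spermatid markers lay between 15 and 15.9, 7.89 and 31.2, 338 and 673, 419 and 1200, and 466 and 1340 at the same ages. The 15 elongating spermatid markers lay between 5760 and 8850 at 3 months, 9380 and 13700 at 4 months and 9020 and 27500 in adults. The round and elongating markers thus reached higher values after 3 months, whereas the members' sum reached 5661 at 3 months and no more than 4913 and 5035 later. Their part in the members' course was not tested.

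The main step was from 2 to 3 months, with 14 of 25 members rising and none falling, where 15% of all genes rose and 8.04% fell. The medians were 1.94 and 0.244. All 4 libraries of 3 months lay above all 4 of 2 months for 22 members, against 34.7% of genes. All 3 IFT-A genes, all 3 dynein-2 genes, 6 of 13 IFT-B genes and 2 of 3 kinesin-2 genes were called. No BBSome gene was called, although all BBS7 libraries of 3 months (66.7, 54.4, 64.3 and 49.5 TPM) were above those of 2 months (14.4, 21.9, 20.2 and 10.9), and a difference between roles was not tested. CLUAP1 had 42.8, 246, 159 and 28.9 TPM at 2 months and 1217, 1055, 1122 and 1221 at 3 months (3.53 ± 0.81, adjusted p = 0.00624). DYNC2H1 had 4.20, 30.9, 23.8 and 7.54 and then 82.9, 72.8, 68.1 and 62.0 (3.06 ± 0.70, adjusted p = 0.00637). IFT22 had 76.2, 238, 167 and 57.5 and then 729.9, 665, 723 and 711 (2.71 ± 0.56, adjusted p = 0.00354). In all 3 genes the ages were separate, with 2-month replicates 2 and 3 the highest of their age. DYNC2I2 (3.38), IFT74 (2.89), IFT140 (2.75), KIF3B (2.65) and IFT57 (2.2) also rose. Library preparation and age overlap here, since replicate 1 was the only 2-month library made by polyA selection. Without it no member was called and 0.733% of genes were, and without the preparation term 22 members rose, against 22.9% of genes. With the deposited FPKM in place of TPM, 14 rose and 1 fell, and rises were 50.4% of all calls in place of 65%. Dropping any 1 of the 3-month libraries gave 7 to 9 calls, a count of members not set beside the share of all genes.

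From 1 to 2 months only IFT172 and IFT80 were called, where 7.22% of all genes rose and 3.88% fell. IFT172 had 1.47 and 1.5 TPM at 1 month and 12.3, 46.2, 33.7 and 16.1 at 2 months (2.92 ± 0.86, adjusted p = 0.0352). IFT80, an IFT-B subunit of the peripheral part, had 11 and 6.34 and then 34.6, 54.3, 35.1 and 14.4 (2.36 ± 0.63, adjusted p = 0.0206). In both genes each 2-month library was above the pair of 1 month. With the polyA libraries alone neither was called, nor without either 1-month library or without adult replicate 2. No member was called from 3 to 4 months by limma, when 0% of genes were, or from 4 months to adult, when 0.0259% were. At an unadjusted p under 0.05 there were 1 member and 1686 genes in the first of these steps and 0 members and 1836 genes in the second, and with FPKM 0 members were called in either.

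Over the whole course, from 1 month to adult, 16 of 25 members rose and 1 fell, against 29.4% and 15.4% of all genes, with medians of 1.99 and 0.593. CLUAP1 rose most: after 13.2 and 13.4 TPM at 1 month, adults had between 189 and 1022, median 719.5, and the log2 difference was 5.24 ± 0.71, adjusted p = 1.39e-05. KIF3B went from 8.27 and 10.2 TPM to between 27.4 and 279, median 150.3, in adults (3.55 ± 0.68, adjusted p = 3.73e-04), and IFT172 from 1.47 and 1.5 to between 4.97 and 59.4, median 33.4, (3.38 ± 0.67, adjusted p = 4.91e-04). Every adult library was above both young ones for these genes. IFT22 (2.91), IFT74 (2.80), TRAF3IP1 (2.66), IFT57 (2.60), IFT140 (2.57) and DYNC2I1 (2.49) also rose. The fall was that of BBIP1, with 135 and 164 TPM at 1 month and adults between 17.3 and 68.7, median 47.8, without overlap (-1.53 ± 0.27, adjusted p = 2.03e-04). IFT20, not called, had 229.9 and 215 TPM at 1 month and between 39.3 and 192, median 69.9, in adults, where every value was lower. The peritubular or stromal markers, 16 in number, summed to between 2630 and 3630 TPM at 1 month and between 193 and 1220 in adults, and their part in these falls was not tested. Leaving out 1-month replicate 1 or 2 gave 10 or 9 calls in place of 17. These counts are not set beside the share of all genes, so they do not show a loss among members alone.

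Adult libraries differed among themselves. Replicate 1 was the lowest adult for 15 members and replicate 2, the depleted one, for 10, with summed levels of 1277 and 1398 TPM against 3000 or more in the other 5. Replicate 6 was the highest for 17. IFT20, IFT27, IFT43, IFT52 and IFT57 had another pattern: 4-month replicate 3 had 321, 269, 278, 325 and 385 TPM and adult replicate 3 had 192, 214, 243, 276 and 391 TPM, each the highest of its age. In the same 2 libraries TRAF3IP1 had 14.2 and 16.4 TPM and DYNC2I2 6.99 and 4.89, in each case the lowest or second lowest of the age. These genes were singled out after their values were seen.

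**Figure D4:**
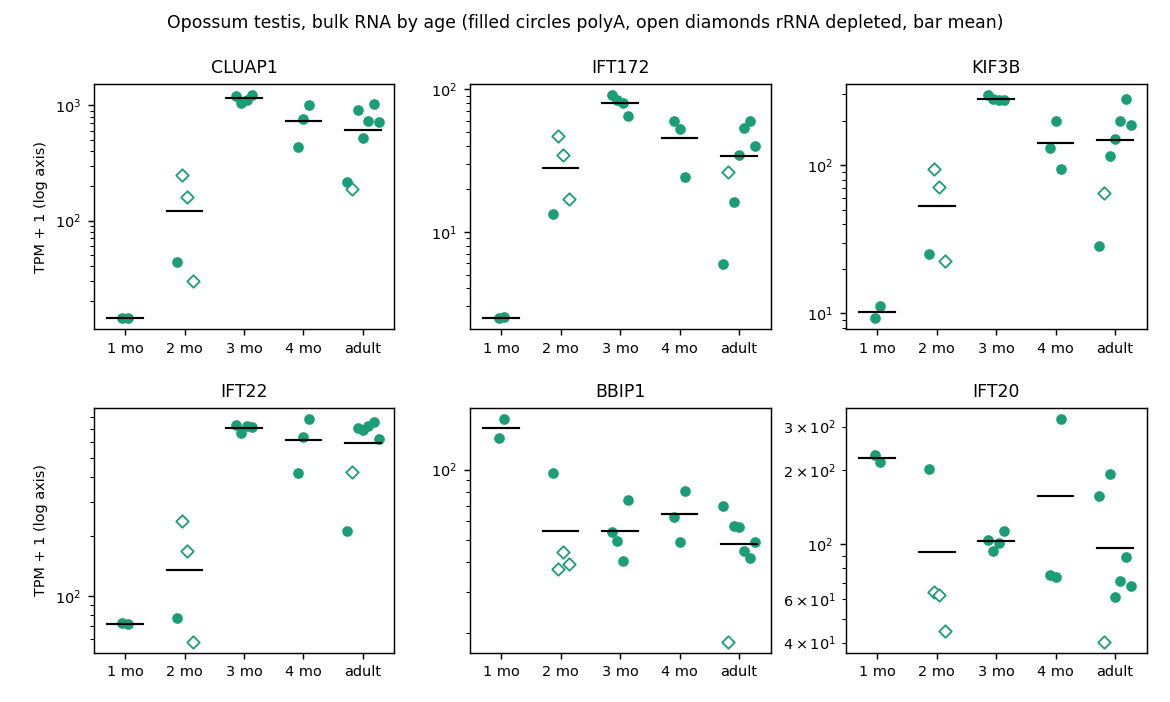
TPM + 1 (log axis) of 6 member genes in the 20 opossum bulk libraries by age; circles are polyA and diamonds rRNA-depleted libraries, and bars mark means. CLUAP1 climbs from 13.2 and 13.4 TPM at 1 month to over 1000 in every 3-month library, whereas BBIP1 is highest at 1 month. IFT20 has 229.9 and 215 TPM at 1 month and is above that in 1 library alone, 4-month replicate 3, at 321.

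Subunits and partners of the same machinery that carry other symbols were examined beside the members. Of 26 tested in mouse, 18 rose and 4 fell from spermatogonia to spermatocytes, and 5 rose and 17 fell from round to elongating spermatids, where 29.7% and 22.5% of all genes rose and fell in the first step and 18.4% and 31.1% in the second. Of 17 tested in opossum, 9 rose and 3 fell in the first of these steps and 1 rose and 6 fell in the last, beside 37.9% and 17% of all genes and then 16.1% and 21.4%. In bulk from 2 to 3 months, 5 of 18 rose and 3 fell, with a median of 0.259, beside 15% and 8.04% of all genes. Of the light chains shared with cytoplasmic dynein, mouse DYNLRB2 went from 4.35, 5.96 and 2.57 scaled CPM to 226, 290.3 and 135 (5.70 ± 0.52, adjusted p = 2.77e-06), while DYNLRB1 went from 133, 105 and 89.5 to 12, 3.20 and 16.9 (-3.42 ± 0.72, adjusted p = 0.00131). DYNLL2, another shared light chain, fell by 2.16 in this step, and DYNLL1 was not called (0.39). DYNLRB1 and DYNLL2 were named after their values were seen. In opossum DYNLRB2 rose in the same step (6.71). DYNLL1 had 1640, 1482 and 1444 in round and 6728, 5915 and 5813 in elongating spermatids of mouse (2.01 ± 0.35, adjusted p = 3.65e-04). The small GTPase ARL6, which recruits the BBSome to membranes, named after its values were seen as well, fell in the last step by 6.34 in mouse and 2.18 in opossum.

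Genes of the axoneme, the cargo that the trains help to deliver, were also examined. From spermatogonia to spermatocytes 52 of 56 rose in mouse and 36 of 40 in opossum, with medians of 4.76 and 5.01, and 1 and 0 fell, where 29.7% and 37.9% of all genes rose and 22.5% and 17% fell. From round to elongating spermatids 40 of 56 fell in mouse and 23 of 40 in opossum, beside 31.1% and 21.4% of all genes, and in bulk 38 of 40 rose from 2 to 3 months, beside 15%. TEKT1, a tektin filament protein, rose by 7.16 in mouse, and SPAG17, of the central pair, by 10.01 in opossum. Because motile cilia outside the germ line share these genes, markers of the multiciliated cells of the efferent ducts were read in the same sums. Of that list 10 were found in mouse and 6 in opossum. Their summed bulk TPM was between 27.6 and 29.3 at 1 month, 11 and 80.7 at 2 months, 399 and 433 at 3 months, 146 and 369 at 4 months and 53.6 and 482 in adults. In opossum round spermatids the list summed to between 1150 and 1490 CPM, of which DEUP1, a factor of centriole assembly, gave between 1130 and 1460, while CCNO and SNTN lay between 0 and 1.81 CPM. Whether such cells contributed to the bulk course was not tested.

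RFX factors and FOXJ1 are the transcription factors best known for switching on ciliary genes. RFX2 went from 5.12, 4.47 and 8.51 scaled CPM in mouse spermatogonia to 92.3, 120.0 and 121 in spermatocytes (4.23 ± 0.40, adjusted p = 3.63e-06), and in opossum from 2.58, 6.31 and 5.07 to 90.2, 77.9 and 94.3 (4.20 ± 0.49, adjusted p = 3.33e-06). In both species the classes stood apart. FOXJ1 rose in this step by 3.83 and 4.02, and again into round spermatids, by 2.07 and 2.98. RFX3 was among the factors that differed between the species: opossum had 9.93, 14.9 and 12 in spermatogonia, 132, 137 and 163 in spermatocytes, 541, 368 and 519 in round and 31.1, 15.6 and 25.6 in elongating spermatids, and the interaction was 3.12 ± 0.56, adjusted p = 9.71e-05 in the first step. The interaction for RFX3 in the last step was -4.74 ± 0.57, adjusted p = 6.19e-07. Of 6 listed ciliogenesis factors tested in that step, 1 interaction was called positive and 2 negative, against 26.7% and 14.8% of all genes. RFX1 rose into round spermatids by 2.59 in mouse and 1.85 in opossum. Without clusters 17 and 25, the opossum rises into round spermatids were 2.58 for FOXJ1 and 1.86 for RFX1, and the last interaction of RFX3 was -5.12, all of them still called. Those of RFX2 (-1.99 ± 0.52, adjusted p = 0.00297) and FOXJ1 (4.35 ± 0.88, adjusted p = 2.84e-04) in the last step were called in that setting too. RFX4, which was not among the opossum genes tested alone, rose by 5.46 in mouse from spermatogonia to spermatocytes.

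The mouse promoters of the members were searched for a loose form of the X-box, the palindrome-like site that RFX factors bind. The letters searched were GTNNCC, then 3 bases of any kind, then GNAAC, where N is any base, on both strands, from 250 bases before to 50 bases after the start of the canonical transcript. Overlapping matches on both strands at 1 place were counted once. Of the 33 member promoters 7 held a match (21.2%), and of all 21770 promoters of protein-coding genes 462 did (2.12%). All matches are shown, so that the letters of the site can be compared between genes. Each line gives 30 bases of the GRCm39 reference, 5′ to 3′ on the gene's strand, with the match in capitals. In Bbs1, Ift57 and the first Ift22 line the letters match when read on the opposite strand.
Bbs1 (chr19:4956633-4956662, minus strand): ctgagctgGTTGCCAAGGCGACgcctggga
Bbs4 (chr9:59260747-59260776, minus strand): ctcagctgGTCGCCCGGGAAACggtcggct
Bbs7 (chr3:36667638-36667667, minus strand): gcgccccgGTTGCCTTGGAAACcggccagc
Cluap1 (chr16:3726472-3726501, plus strand): gctccacaGTTTCCAGGGCAACctctggcg
Dync2li1 (chr17:84933873-84933902, plus strand): gtgacgtcGTTGCCATGGCAACcgaggagc
Ift22 (chr5:136936933-136936962, plus strand): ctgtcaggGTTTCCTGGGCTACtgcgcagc
Ift22 (chr5:136936963-136936992, plus strand): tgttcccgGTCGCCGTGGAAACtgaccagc
Ift57 (chr16:49519562-49519591, plus strand): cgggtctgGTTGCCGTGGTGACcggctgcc
The matches of IFT22 lie 33 and 63 bases before the start, that of CLUAP1 137 bases before it and that of BBS7 across it, and those of the other genes begin 15 to 26 bases after it. A match of letters is not evidence of binding, and promoters without one may hold other forms of the site. The opossum promoters were not analysed here.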

How the data were processed

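Droplet 3-prime libraries of mouse and opossum testes and bulk opossum libraries were used. The deposited matrices hold estimated UMI counts (expected counts, mostly not whole) per gene and barcode, and they were rounded after summing. The deposited bulk tables give TPM, FPKM and read coverage per gene, with TPM and FPKM scaled by the authors, and coverage was used only for depth, at 2.9 to 7.12 aligned gigabases per library. The submitters' processing notes name Cell Ranger 6.0.1, HISAT2 2.2.1, SAMtools 1.12 and StringTie 2.1.4, without their roles. The annotation used for counting in each library is not given in full in the sources used here, and genes that overlap a member, such as Gm20695 at CLUAP1 on its strand, could share its reads.

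A barcode needed 1000 UMIs and 500 genes, and the 8% with the highest doublet scores in each library were removed. Cells were clustered with scanpy 1.11.5 (2000 variable genes, 30 components, 8 neighbours per library, resolution 1) and named from markers with at least 3 passing. Sums of at least 20 cells per class and library were tested with edgeR 4.0.16 (TMM factors, library as block), since same-numbered classes come from 1 library. Of the class sums, 12 of 12 in mouse and 12 of 12 in opossum correlated best with their own library. Bulk log2(TPM + 1), for genes at 1 TPM or more in 2 libraries, was tested with limma 3.58.1. P-values were adjusted by Benjamini-Hochberg over all genes tested. The tests were checked on simulated data with 100 genes changed by 1.5 on the log2 scale. From mouse spermatocytes to round spermatids 97% were recovered, and in bulk from 2 to 3 months 7%. For the species interaction 66% were recovered in the step into round spermatids and 64% in the last step. The simulated single-cell sums had 1 fixed spread, no library effect and as many rises as falls, and changed no genes of low count. They do not test the dependence on scaling.

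The members and gene lists were chosen with earlier results of these data known. Named members are those called, up to 8 per comparison by size of difference and the first of each role by adjusted p, and up to 4 called genes from each list plus DYNLL1, RFX1 to RFX4 and FOXJ1. Alternatives covered scaling (RLE, DESeq2 1.42.0), filters, depth, clustering, the block, FPKM, library preparation and each library left out. Leaving out clusters of high or low depth, and peaks by scaled CPM, were chosen after seeing the data. No 2 bulk libraries were identical.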

Additional observations from a re-analysis of the deposited data

Results flagged for a closer look

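In bulk, 6 of 75 groups of values screened held 1 library far from the others, where chance flags about 1 in 20. IFT27 stood at 214.4 TPM and IFT43 at 242.7 TPM in adult replicate 3, both the highest of their age. BBS4 at 35.1 TPM, IFT20 at 200.1 and BBIP1 at 96.1 stood apart in 2-month replicate 1, the only polyA library of that age. IFT80 stood at 104 TPM in 3-month replicate 1.

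The other entries are tests of a difference between the species, given as opossum minus mouse on the log2 scale. From spermatogonia to spermatocytes these were BBIP1 at -4.82, IFT27 at -2.19, BBS7 at -2.01, KIF3B at -1.92, IFT122 at -1.76, IFT20 at -1.62, IFT57 at -1.47, BBS4 at 1.32 and CLUAP1 at 2.01. From spermatocytes to round spermatids they were IFT172 at -2.68, IFT80 at -1.52, DYNC2I1 at 1.47, IFT20 at 1.90, DYNC2I2 at 2.12, IFT27 at 2.27 and IFT22 at 2.85. From round to elongating spermatids they were IFT172 at -6.57, IFT74 at 1.58, IFT88 at 1.59, DYNC2I2 at 2.15, IFT52 at 2.25, BBS7 at 2.49, KIF3B at 2.5, IFT27 at 2.55, KIF3A at 2.80, BBIP1 at 3.24, TRAF3IP1 at 3.61, IFT20 at 3.91 and IFT43 at 5.56. Of the last step, 4 values had the opposite sign at a minimum of 2000 UMIs, namely BBIP1 (-2.90), IFT52 (-1.58), DYNC2I2 (-1.22) and IFT88 (-0.97). DYNC2I2 was also negative with entries rounded up and without clusters of low depth, and IFT52 without clusters of low depth.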

How the results depend on the processing

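Of the single-gene results, 2213 alternatives kept direction and call, 380 kept the direction without the call and 8 reversed, and of the counts of called members and leading classes 247 stayed within 1.5 times and 57 moved. At a minimum of 2000 UMIs the opossum change of BBIP1 into spermatocytes, a fall otherwise, was 0.19, and the species differences into elongating spermatids were -2.90 for BBIP1, -1.22 for DYNC2I2, -1.58 for IFT52 and -0.97 for IFT88. DYNC2I2 was also at -0.48 with entries rounded up and -0.96 without clusters of low depth, where IFT52 was at -0.27. The causes were not tested.

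Members called from mouse spermatocytes to round spermatids numbered 5 with no replicate block (41% of genes) and 6 with thinned sums (43.8%). With 1 library left out they numbered 4 to 11 (24.4% to 49.7%), against 50.1% of genes in the main fit. In opossum that step gave 15 at 2000 UMIs (73.6% of genes), 1 without clusters of high depth (52.6%) and 4 to 9 with 1 library left out (52.2% to 64.4%). The main fit called 66.2% of genes there. The next step gave 16 (33.1%), 12 (46.4%), 11 without clusters of low depth (32.2%), and 1 to 9 (15.7% to 44.1%), against 37.5% in the main fit. Species differences into spermatocytes numbered 5 with RLE factors, 5 at 2000 UMIs, 5 with no replicate block and 1 to 7 with 1 library left out. Those into round spermatids numbered 13 with DESeq2, 12 at 2000 UMIs, 3 without clusters of high depth and 3 to 7. Those into elongating spermatids numbered 8 with RLE factors, 5 at 2000 UMIs, 7 without clusters of low depth and 8 to 15. Shares of all genes are not given beside these counts of species differences, so they do not show a change among members alone.

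In bulk, 1 to 2 months gave 1 call with no filter, 6 without the preparation term, 0 with polyA libraries alone, 0 with the replicate block and 0 to 5 with 1 library left out. From 2 to 3 months there were 7 with no filter, 22 without the preparation term, 7 with the replicate block and 0 to 17. From 1 month to adult there were 8 with the replicate block and 9 to 20. These bulk counts, too, are given without shares of all genes. Bulk replicate numbers do not pair the samples: 2 of 17 correlated best with their own number, at r between -0.285 and 0.672. Peak classes moved too: mouse spermatogonia led for 1 member at 2000 UMIs and 0 by scaled CPM, and mouse elongating spermatids for 3 by scaled CPM. In opossum, spermatogonia led for 3 without clusters of low depth, spermatocytes for 9 without those of high depth, round spermatids for 9 at 2000 UMIs and 10 without clusters of high depth, and elongating spermatids for 2 at 2000 UMIs and 9 by scaled CPM. The counts of leading classes are likewise given without shares of all genes. Depth limits the low members: BBIP1 in opossum, and BBS12, DYNC2LI1, DYNC2I2 and BBS4 in mouse elongating spermatids, rest on few UMIs. Spermatogonial levels of IFT22 in opossum and of BBS10 and DYNC2LI1 in mouse were low as well.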
